A study of Mus musculus with 10 samples.

Results

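The let-7 family is a group of miRNAs of 22 bases that share their seed, the stretch of bases 2 to 8 that pairs with target mRNAs. The 7 members described here are let-7a, let-7d, let-7e, let-7f, let-7g, let-7i and miR-98, taken as the panel probes named mmu-let-7a, mmu-let-7d, mmu-let-7e, mmu-let-7f, mmu-let-7g, mmu-let-7i and mmu-miR-98. They are 7 of 566 mouse miRNA probes, and let-7b and let-7c, the relatives left out by that choice, appear only for comparison.

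RNA came from Abelson virus-transformed B cell progenitors, immature B-lineage cells from C57BL/6 fetal liver at E14.5 that grow in culture because a retroviral vector, pMSCV-v-Abl, supplies the v-Abl kinase. There were 5 wild type cultures (1 to 5) and 5 of the genotype Bim3’UTRmut/mut (6 to 10, called mutant here), homozygous for a mutated 3'UTR of Bim. Bim is a pro-apoptotic protein whose mRNA is a target of several miRNAs. All cultures of both genotypes carried v-Abl, and IL-7 was given during transformation. The labels do not say which bases of Bim are changed or how many embryos gave rise to the cultures. All p-values therefore set a genotype difference against the spread between cultures of the same genotype, part of which may be technical. The genotype labels were not checked, since Bim mRNA was not analysed here.

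let-7 miRNAs rise as cells differentiate and repress growth-promoting and fetal-stage genes, among them Hmga2, Myc, Ras genes and Lin28b. Lin28a and Lin28b in turn bind the loops of let-7 precursors and block their maturation, and Lin28b is known for its part in the fetal programme of blood cell and lymphocyte formation. None of these mRNAs was analysed here.

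The mature sequences (RefSeq, GRCm38.p6, 5′ to 3′, seed in capitals) are shown because the 7 probes must tell apart miRNAs that differ by few bases.
let-7a: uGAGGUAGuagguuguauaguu
let-7d: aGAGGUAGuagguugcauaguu
let-7e: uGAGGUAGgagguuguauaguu
let-7f: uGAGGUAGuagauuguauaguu
let-7g: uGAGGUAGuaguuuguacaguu
let-7i: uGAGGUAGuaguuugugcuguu
miR-98: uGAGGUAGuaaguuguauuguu
let-7b: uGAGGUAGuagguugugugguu
let-7c: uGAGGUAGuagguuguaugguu

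All 9 have the seed GAGGUAG, are 22 bases long and are identical at 14 positions. Positions are counted from 1 at the 5′ end, with the base of let-7a first. let-7e differs from let-7a only by U9G, let-7f only by G12A and let-7c only by A19G. let-7d differs by U1A and U16C, let-7g by G12U and U18C, miR-98 by G11A and A19U, and let-7b by A17G and A19G. let-7i is the member farthest from let-7a, with G12U, A17G, U18C and A19U. Over the 21 pairs of the 7 members the number of differences ran from 1 to 6, with a median of 3. The seed was found in 11 of 1679 mature mouse miRNAs of the RefSeq table (0.655%), and 10 of the 11 had a panel probe, the 9 above and miR-1961.

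The members came from several loci. let-7a (chr13:48538239-48538260), let-7f (chr13:48537889-48537910) and let-7d (chr13:48536078-48536099) lie on the minus strand in a cluster whose 3 hairpins span 2261 bases, outside any other annotated gene. let-7f has another copy at chrX:151912353-151912374, and miR-98 lies beside it at chrX:151913229-151913250. These hairpins span 976 bases on the plus strand, inside the bounds of Huwe1, which encodes a ubiquitin ligase. let-7g (chr9:106178846-106178867) is on the plus strand within the bounds of Wdr82, and let-7e (chr17:17830366-17830387) on the plus strand within those of Spaca6, next to Mir125a. let-7i (chr10:122985698-122985719, minus strand) has no other annotated gene around it. let-7a has another hairpin, Mirlet7a-2, on chromosome 9 within the long non-coding RNA gene Mir100hg. Exon and intron bounds were not used here. let-7b (chr15:85707325-85707346) and the let-7c copy at chr15:85706616-85706637 lie together on the plus strand within the long non-coding RNA gene Lncppara, and let-7c has another copy at chr16:77599672-77599693.

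The loop of each hairpin, between its mature arms, was searched on its own strand for GGAG, the motif bound by the zinc knuckles of Lin28, and for GAU outside it, a motif bound by the cold shock domain. GGAG was found in 8 of the 9 hairpins of the 7 members, all but that of miR-98, and in 52 of 644 mouse hairpins with both arms listed (8.08%). GAU outside GGAG was found in 4 of the 9, those of let-7d, let-7g, miR-98 and the chromosome 13 copy of let-7f, and in 97 of the 644 (15.1%). Loops differ in length, and a match describes these letters only.

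Molecules were counted with NanoString nCounter, in which miRNAs receive a tag, hybridise to colour-barcoded probes and are counted without amplification. The libraries held 356141 to 470493 counts, of which 240469 to 354826 were of mouse miRNAs. Detection meant a count over the negative-control mean + 2 SD of the same library, which put the threshold at 90.5 to 127 counts. The 116 mouse miRNA probes detected in at least 5 libraries were kept for tests, and all 7 members were above the threshold in all 10 libraries. The labels do not name lanes. The last number in the header of each count column was 1 to 5 for wild type and 6 to 10 for mutant. If it gives the lane, an effect of the lane cannot be told apart from one of the genotype. All 8 probes listed for blood and B-lymphoid cells were kept, and 78 of their 80 values exceeded the threshold. miR-150 and miR-155 were above it in 9 of 10 libraries each. The list includes miR-16, miR-15b and miR-21, and whether its probes are limited to these cells was not tested. Their detection therefore does not establish the cell type. None of 13 markers of other cell types was kept. Of the 130 values of the latter 5 exceeded their threshold, and their summed counts were 627 to 738 in wild type and 506 to 881 in mutant libraries. Across the 116 kept miRNAs, whose log2 counts are not independent replicates, mutant 9 and 10 stood apart from mutant 6, 7 and 8, with Pearson's r of 0.842 to 0.867 between the sets, 0.966 to 0.986 within mutant 6, 7 and 8, and 0.936 between mutant 9 and 10. Wild type 5 had a median r of 0.940 with the other wild type libraries, which themselves had medians of 0.981 to 0.991. Values without some of these libraries are given beside the members they move.

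Together the 7 members took between 11.4% and 13.1% of the mouse miRNA counts in every library. Their share was 12.1%, 13.1%, 12.2%, 12.2% and 11.7% in wild type 1 to 5 and 12.6%, 12.1%, 12.1%, 11.6% and 11.4% in mutant 6 to 10. The ranges of the genotypes overlapped, mutant 9 and 10 being the lowest of the 10 libraries and wild type 2 the highest. The means were 12.3% ± 0.501 for wild type and 12.0% ± 0.447 for the mutant (SD, n = 5 each). Their difference of -0.301 percentage points was smaller than either SD, and it was -0.00804 without mutant 9 and 10 and -0.100 without wild type 2. These totals include 11 probes that carry miRNA names but were taken here as rRNA or tRNA fragments, with no sequence check. Without those probes and the probes named miR-1937 in the total, the shares were 14.2% ± 0.450 and 13.7% ± 0.425 (SD, n = 5 each). That difference of -0.487 percentage points was larger than either SD. The difference was -0.501 as a share of the 116 kept probes and -0.544 after background subtraction, each smaller than either SD of its own shares. Raw counts of the 7 summed to 28839 to 33181 in wild type and 30839 to 41125 in mutant libraries. After scaling by TMM, which assumes that most miRNAs do not change between libraries, the sums were 33163 ± 855 and 33164 ± 1933 (SD, n = 5 each). A lower share in a culture cannot be separated into fewer cells that make the miRNA and less of it per cell.

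Within the family, 5 probes gave most of the counts. let-7g was highest and let-7i next in all 10 libraries, let-7f came below let-7a and let-7d in all 10, and miR-98 and let-7e shared the lowest places. The places between them were taken by let-7d and let-7a, with let-7d above let-7a in 8 libraries and below it in mutant 9 and 10. miR-98 lay above let-7e in 8 libraries and below it in wild type 1 and mutant 10. Probes can bind and be ligated with different efficiency, so this is an order of counts and not of molecules.

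**Figure D1:**
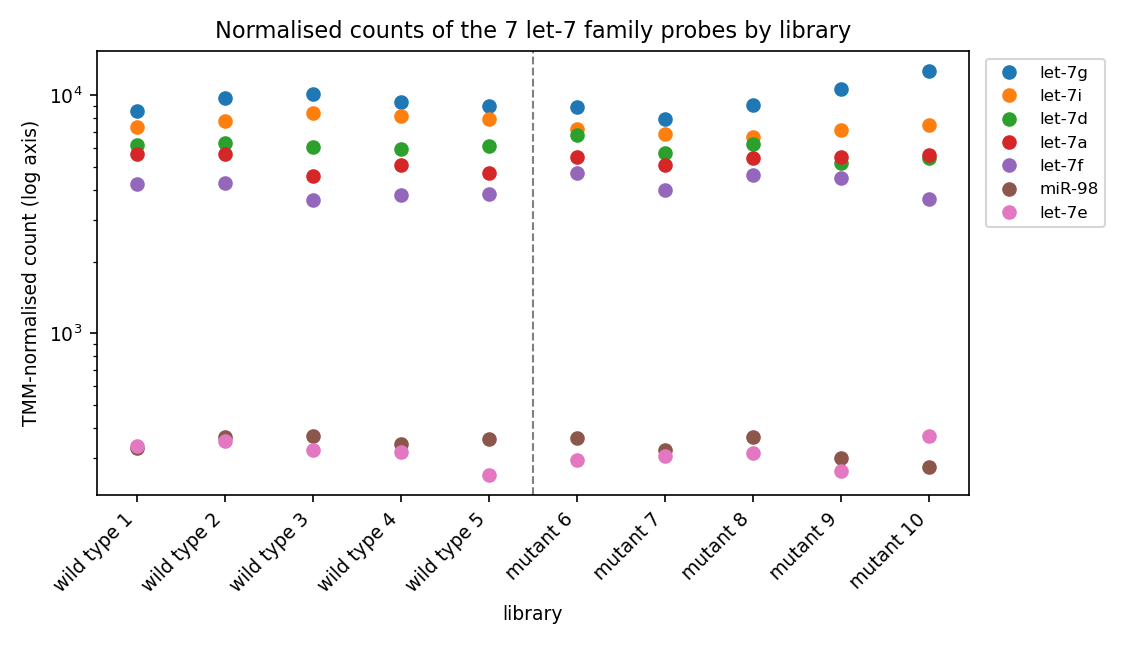
TMM-normalised counts of the 7 probes (y, log axis) in the 10 libraries (x), wild type left and mutant right of the dashed line, 1 point per library. let-7g lies highest in every library, 5 probes lie between 3611 and 12627, and miR-98 and let-7e lie between 254 and 372.

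let-7g, the most counted member, is encoded in the Wdr82 locus. It counted 8436, 9375, 9688, 8346 and 8065 in wild type 1 to 5 and 8332, 8087, 9681, 13076 and 13476 in mutant 6 to 10. In raw counts mutant 9 and 10 were above every other library and mutant 6, 7 and 8 within the wild type range. Normalised counts averaged 9359 ± 609 for wild type and 9854 ± 1833 for the mutant (SD, n = 5 each), with mutant 10 at 12627 and mutant 9 at 10655 as the highest values. Mutant 7, at 7919, then lay below all wild type libraries, which held 8553 to 10117. The log2 fold change of let-7g, mutant over wild type, was 0.07 (SE 0.12, 95% interval -0.21 to 0.36, edgeR quasi-likelihood adjusted p = 0.831 over 116 miRNAs). The sign turned to -0.03 without mutant 10 and to -0.11 without mutant 9 and 10 (edgeR adjusted p = 0.486).

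let-7i has a locus of its own on chromosome 10. It counted 7235, 7460, 8060, 7260 and 7111 in wild type 1 to 5 and 6684, 6998, 7091, 8734 and 8013 in mutant 6 to 10. Raw counts overlapped between the genotypes. After scaling, wild type values were 7335 to 8417 and mutant values 6683 to 7508, so that mutant 10 lay above wild type 1 and the other 4 mutant libraries lay below all wild type ones. The normalised means were 7921 ± 408 and 7067 ± 317 (SD, n = 5 each). The fitted log2 fold change was -0.16 (SE 0.062, 95% interval -0.31 to -0.02). By edgeR's adjusted p of 0.373 it was not called, as was the case for all 116 miRNAs (0 called, 0.00%). At an unadjusted edgeR p under 0.05, let-7i alone of the 7 members stood among 11 of the 116 miRNAs (9.48%), of which 5 were lower in mutant samples (4.31%). It was no longer among such miRNAs without wild type 4, without mutant 7, 8 or 9, or with scaling by the 100 highest probes, by housekeeping mRNAs or by positive controls, or with no filter. In DESeq2 1 of the 7 members, let-7i again, was called lower (log2 fold change -0.16, adjusted p = 0.0424), beside 5 of 116 miRNAs called (4.31%), 2 of them lower (1.72%), while limma-voom called 0.

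The let-7i value depended on how libraries were scaled. It was 0.32 with scaling by housekeeping mRNAs and 0.05 with scaling by positive controls, where the median of all miRNAs also moved, to 0.46 and 0.20. Relative to these medians let-7i lay at -0.14 and -0.15, beside -0.16 with TMM. With no filter on low counts it was 0.04 (edgeR adjusted p = 0.918), or 0.07 relative to the median of all 566 probes. Leaving out each library in turn gave -0.19 to -0.12, and leaving out mutant 9 and 10 together gave -0.19 (edgeR adjusted p = 0.116).

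let-7a, let-7d and let-7f come from the chromosome 13 cluster, with further copies of let-7a and let-7f elsewhere. let-7a counted 5577, 5452, 4369, 4551 and 4209 in wild type 1 to 5 and 5138, 5181, 5755, 6740 and 5969 in mutant 6 to 10. Mutant 8, 9 and 10 lay above all wild type libraries in raw counts, but after scaling the mutant values of 5074 to 5593 lay inside the wild type range of 4563 to 5666. Its log2 fold change was 0.08 (SE 0.079, 95% interval -0.11 to 0.26; edgeR adjusted p = 0.699), and without wild type 3 it was -0.01.

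let-7d counted 6103, 6084, 5782, 5285 and 5458 in wild type 1 to 5 and 6365, 5858, 6622, 6380 and 5830 in mutant 6 to 10. Once scaled, mutant 6 was the highest library at 6832, and mutant 7, 9 and 10, at 5736, 5199 and 5463, lay below all wild type libraries, which held 5924 to 6323. The log2 fold change was -0.05 (SE 0.081, 95% interval -0.24 to 0.13; edgeR adjusted p = 0.822). It was 0.03 without mutant 9 and 0.04 without mutant 9 and 10.

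let-7f counted 4181, 4118, 3458, 3389 and 3448 in wild type 1 to 5 and 4392, 4073, 4911, 5502 and 3905 in mutant 6 to 10. In scaled counts mutant 6, 8 and 9 lay above all wild type libraries, at 4714, 4629 and 4483, while mutant 10 (3659) lay near the lowest, wild type 3 (3611). The log2 fold change was 0.12 (SE 0.091, 95% interval -0.09 to 0.33; edgeR adjusted p = 0.538). Its sign was the same in every setting tried, leave-one-out included, but its size was not. It was 0.038 without wild type 3, 0.056 with background subtraction and 0.17 without mutant 9 and 10. The largest values were 0.59 with housekeeping scaling (edgeR adjusted p = 0.0898), 0.33 with positive-control scaling and 0.33 with no filter. Relative to the median of all probes in the same fit these were 0.13, 0.12 and 0.36.

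miR-98, the neighbour of the X-linked let-7f copy, and let-7e, the neighbour of Mir125a, gave far lower counts. miR-98 counted 324, 353, 356, 305 and 321 in wild type 1 to 5 and 340, 329, 388, 368 and 293 in mutant 6 to 10. let-7e counted 331, 339, 311, 282 and 227 in wild type 1 to 5 and 274, 313, 332, 325 and 395 in mutant 6 to 10. The genotypes overlapped for both. Their log2 fold changes were -0.12 for miR-98 (SE 0.11, 95% interval -0.37 to 0.13) and -0.03 for let-7e (SE 0.13, 95% interval -0.32 to 0.26), with edgeR adjusted p values of 0.658 and 0.970. Background weighs on these 2 probes: the mean negative control was 10.0% to 17.8% of the count of miR-98 and 11.7% to 25.1% of that of let-7e, against at most 1.65% for the other 5. Without mutant 9 let-7e was at 0.06, without wild type 2 at 0.01 and without wild type 5 at -0.10. miR-98 was at -0.051 without mutant 9, -0.060 without mutant 10 and -0.0076 without both.

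**Figure D2:**
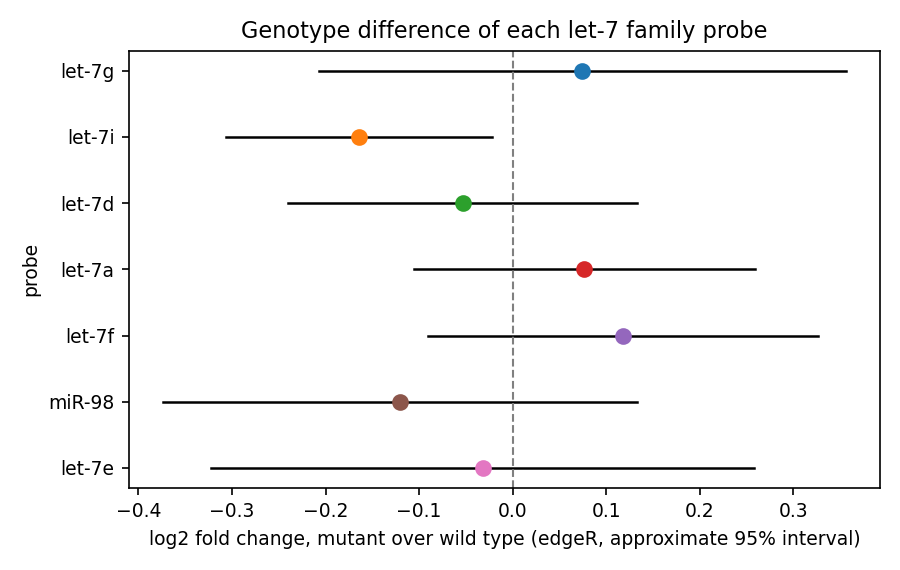
Fitted log2 fold change of each of the 7 probes, mutant over wild type (x), with approximate 95% intervals as bars (edgeR, n = 5 libraries per genotype). The interval of let-7i, -0.31 to -0.02, leaves out 0 and the other 6 include it.

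Of the members' fold changes 3 were above 0 and 4 below, with a median of -0.03, beside 58 above and 58 below and a median of -0.00 for all 116. The median size of the change was 0.08 for the 7 and 0.19 for the 116. The widest bound of any member's interval was -0.37, for miR-98. None of the 7 had scaled counts that did not overlap between the genotypes, beside 3 of 116 miRNAs (2.59%).

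Spread between libraries was below the median of all kept miRNAs for each of the 7 members. The coefficient of variation over the 10 libraries was 7.53% for let-7a, 7.56% for let-7i, 7.67% for let-7d, 9.68% for miR-98, 9.70% for let-7f, 11.5% for let-7e and 13.7% for let-7g. In order from the lowest among the 116 miRNAs, let-7a was in place 3, let-7i in place 4 and let-7d in place 6. The median was 9.68% for the 7 members and 17.1% for all 116, and it was 22.1% for the 54 kept probes outside the let-7 family that counted at least as much as let-7e. Counting error alone gave 1.02% to 1.55% for the 5 abundant members and 5.65% for let-7e. Within mutant samples the spread was wider than within wild type for 5 of the 7, and narrower for let-7a (3.74% against 10.0%) and let-7i (4.48% against 5.15%). In the mutant samples alone let-7a and let-7i were in places 1 and 2 of 116 from the lowest, and in wild type alone in places 48 and 15.

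**Figure D3:**
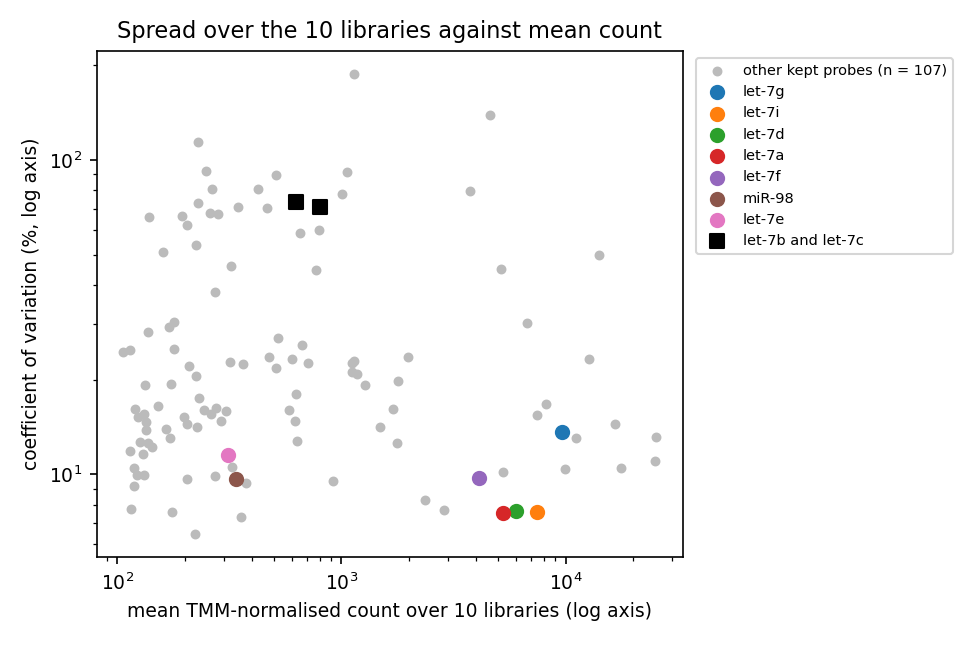
Coefficient of variation of TMM-normalised counts over the 10 libraries (y, log axis) against the mean count (x, log axis), 1 point per kept probe. The 7 members lie between 7.53% and 13.7%, let-7b and let-7c at 73.3% and 70.6%.

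let-7b and let-7c varied far more in the same libraries, with coefficients of variation of 73.3% and 70.6%. let-7c, which differs from let-7a by A19G, counted 1068, 1068, 945, 773 and 610 in wild type 1 to 5 and 96, 87, 49, 1663 and 1784 in mutant 6 to 10. The let-7b probe gave 829, 899, 771, 696 and 456 counts in wild type 1 to 5, 25 to 37 in mutant 6, 7 and 8, and 1209 and 1418 in the remaining pair. The let-7a count in mutant 6, 7 and 8 was 5138 to 5755, inside the range of the other 7 libraries. In mutant 8 the let-7c count was 0.851% of the let-7a count and the let-7b count 0.434% of it, which bounds from above what these 2 probes took from let-7a there, background included. The reverse, what the let-7a probe takes from let-7b and let-7c, was not tested.

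The count ratio of let-7a to let-7d was 0.756 to 0.914 in wild type and 0.807 to 0.884 in mutant 6, 7 and 8. It was higher, 1.06 and 1.02, in mutant 9 and 10, where let-7b and let-7c were also highest. In mutant 6, 7 and 8, where let-7b was below the threshold and let-7c below it or within 1 count of it, the ratio lay inside the wild type range, and the part of these relatives in the ratio was not tested.

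**Figure D4:**
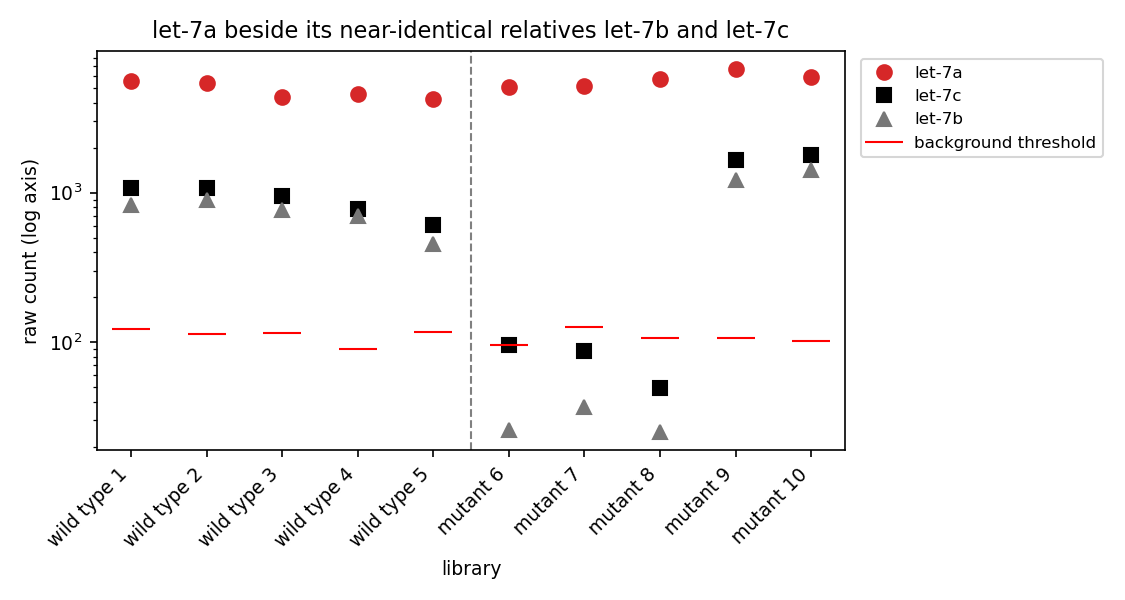
Raw counts (y, log axis) of let-7a, let-7b and let-7c in the 10 libraries (x), with each library's background threshold as a red dash. let-7b and let-7c fall to 25 to 96 counts in mutant 6, 7 and 8 while let-7a stays between 5138 and 5755.

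Ratios between members do not depend on scaling and show how the make-up of the family shifted. let-7g made up 28.2% ± 1.44 of the counts of the 7 in wild type and 29.6% ± 4.03 in mutant samples, with 31.8% in mutant 9 and 35.6% in mutant 10. let-7i made up 23.9% ± 1.31 and 21.3% ± 0.836, a difference of -2.56 percentage points, and its ranges of 22.5% to 25.2% and 20.4% to 22.7% met only through mutant 7. let-7d made up 18.4% ± 0.472 and 17.8% ± 2.22 (SD, n = 5 each), with 15.5% and 15.4% in mutant 9 and 10. let-7a made up 15.5% ± 1.46 and 16.4% ± 0.386, and let-7f 11.9% ± 0.837 and 13.0% ± 1.55. miR-98 made up 1.07% ± 0.0466 and 0.986% ± 0.146, and let-7e 0.953% ± 0.0978 and 0.934% ± 0.104. These shares are descriptions, without a test, and without mutant 10 the let-7g difference of 1.36 percentage points became -0.139.

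**Figure D5:**
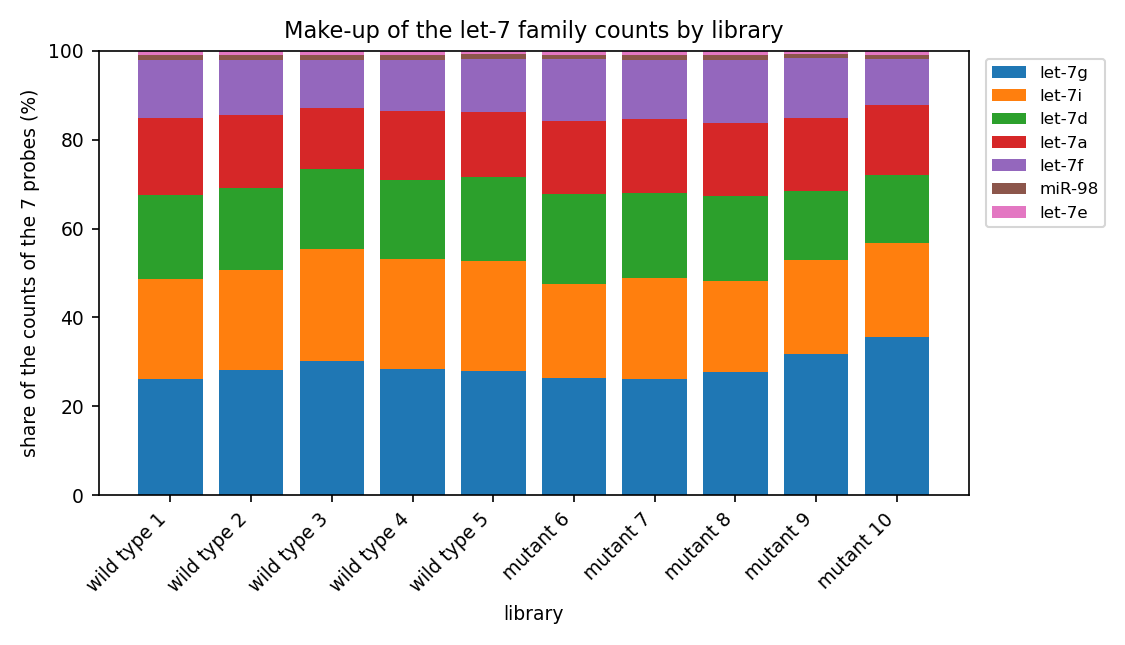
Share of each probe in the summed raw counts of the 7 (y, percent) in each library (x). let-7g and let-7i fill the lower part of every bar, and let-7g is largest in mutant 10, at 35.6%.

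let-7g and let-7i parted in mutant 9 and 10. The count of let-7i over that of let-7g was 0.858, 0.796, 0.832, 0.870 and 0.882 in wild type 1 to 5 and 0.802, 0.865, 0.732, 0.668 and 0.595 in mutant 6 to 10. Mutant 8, 9 and 10 lay below all wild type libraries, and mutant 6 and 7 inside their range. Over the 21 pairs, the SD of the log2 ratio across the 10 libraries ran from 0.087 for let-7d with miR-98 to 0.29 for let-7g with miR-98, with a median of 0.19, beside a median of 0.47 over the 6670 pairs of all kept miRNAs. The 4 pairs that share a genomic cluster (let-7a with let-7d, let-7a with let-7f, let-7d with let-7f, and let-7f with miR-98) had a median of 0.15, between 0.11 and 0.18, and the 17 other pairs a median of 0.20, between 0.087 and 0.29. These values overlap, pairs share members and libraries, and no test was made. In none of the 21 pairs did the ratio separate all wild type from all mutant libraries. The same was not counted over the 6670 pairs, so it cannot be read as particular to the family.

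The neighbours of let-7 genes outside the family were mostly at background. Probes for miR-125a-3p, miR-125a-5p, miR-125b-5p, miR-100, miR-99b and miR-99a were on the panel, and 1 of the 6 was kept, miR-125a-3p. In scaled counts it was 98.5 to 180 in wild type. Mutant 9 held 962, and the other 4 mutant libraries 90.0 to 181. miR-125a-5p, the other arm of the same hairpin, counted 82 in mutant 9, below the threshold of 107 there. let-7e, from the locus of miR-125a, was at 265 in mutant 9, near its lowest value of 254 in wild type 5. miR-99b reached at most 103 counts and miR-100 at most 55, and neither passed its threshold in any library.

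miR-1961, the remaining panel probe with the let-7 seed, has the listed sequence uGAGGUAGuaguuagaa and was looked at after its values were seen. It counted 108 to 134 in wild type and 105 to 125 in mutant libraries, above the threshold in 7 of 10. In scaled counts wild type libraries held 121 to 136 and mutant libraries 96.2 to 119, without overlap, so miR-1961 was 1 of the 3 such miRNAs counted above and 1 of the 5 lower at an unadjusted edgeR p under 0.05. Its log2 fold change was -0.21 (SE 0.079, edgeR adjusted p = 0.373), at counts close to background.

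The kept probes outside the family whose profile was closest to that of the summed 7 members were miR-27a, miR-142-3p and miR-1896. Closeness was the root mean square difference of log2 counts, each centred on its mean, over the 10 libraries, and it was 0.097 for miR-27a, 0.12 for miR-142-3p, a miRNA of blood cells, and 0.12 for miR-1896, against a median of 0.27 over 107 probes. The summed members had an SD of only 0.062, so the measure picks probes that are also nearly flat.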

How the data were processed

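The deposited tables hold whole-number nCounter counts per probe, not normalised by the authors as far as the values show. The 2 deposited tables held the same values in all 6260 cells. Each assay took 100 ng of miRNeasy-purified total RNA, per the labels' protocols. What else the authors did before deposit was not given in the sources.

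Groups and sample numbers came from the sample titles. The 116 probes above background in at least 5 of 10 libraries entered a quasi-likelihood model with genotype as the only term (edgeR 4.0.16, run in R 4.3.3, robust option). TMM factors were 0.872 to 1.11. Adjusted p-values are Benjamini-Hochberg values over all 116, called at 0.05. Intervals use the SE and 8 degrees of freedom. Shares come from raw counts and carry no test. Alternatives were other scalings and filters, background subtraction, DESeq2 1.42.0, limma 3.58.1 with voom, and libraries left out. The fit was also run on simulated counts with planted changes larger than those of the members. That run does not bear on changes of the members' size.

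The text names the 7 members, let-7b and let-7c, the let-7 neighbours and the 3 closest profiles. The members, lists and alternatives were chosen with earlier results of these data known. Counting error alone was 1.02% for let-7g and 5.65% for let-7e, below their coefficients of variation of 13.7% and 11.5%.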

Additional observations from a re-analysis of the deposited data

Results flagged for a closer look

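Of 30 groups of 5 values examined (scaled counts and family shares of each member and the share of the 7 probes, per genotype), 2 held a library far from the other 4, judged by its gap to the nearest value over the group's range (Dixon's 95% criterion). Chance flags about 1 in 20 groups. let-7f made up 10.3% of the family counts in mutant 10, against 13.2% to 14.1% in the other mutant libraries. let-7e made up 0.787% in wild type 5, against 0.959% to 1.03% in the other wild type libraries.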

How the results depend on the processing

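No paired analysis was made, because the labels give no pairing of wild type with mutant cultures. The sample numbers run from 1 to 5 in wild type and 6 to 10 in mutant and do not say whether any cultures shared an origin. Of 154 fold changes of the members under 12 alternatives and 10 leave-one-out fits, 134 kept their direction and their side of the threshold, 19 turned sign and 1 (let-7i, -0.16 in the DESeq2 Wald test) became a call. With housekeeping scaling let-7d, let-7e, let-7i and miR-98 were at 0.40, 0.43, 0.32 and 0.34. There let-7a, let-7f and let-7g were at 0.55, 0.59 and 0.59. With positive-control scaling the same members were, in that order, at 0.15, 0.17, 0.050, 0.081, 0.29, 0.33 and 0.30. With no filter they were at 0.14, 0.16, 0.039, 0.085, 0.28, 0.33 and 0.29. None of these passed the adjusted threshold. At an unadjusted edgeR p under 0.05, housekeeping scaling had let-7a, let-7d, let-7f and let-7g among 52 of 116 miRNAs. Positive-control scaling had let-7a and let-7f among 23 of 116, and no member was among 49 of 566 with no filter. Scaling to those controls moved the median of all miRNAs to 0.46 and 0.20, and the cause of the change without a filter was not tested. Without mutant 9 and 10, let-7d was at 0.040 and let-7g at -0.11. Leave-one-out ranges were -0.011 to 0.11 for let-7a, -0.11 to 0.030 for let-7d, -0.10 to 0.064 for let-7e, 0.04 to 0.17 for let-7f, -0.034 to 0.14 for let-7g, -0.19 to -0.12 for let-7i and -0.17 to -0.05 for miR-98. The count of miRNAs called was 0 in edgeR and 5 in DESeq2. In edgeR without mutant 9 and 10 it was 5 of 116 with no member among them: let-7b, let-7c, miR-210, miR-29b and miR-804. Mutant 9 and 10 were singled out from these same counts, and let-7b and let-7c were highest in them. The calls without them are therefore a description and not a test of the genotype. The count of miRNAs called was 0 to 1 in leave-one-out fits, where miR-16 was called without mutant 9 and miR-29b without mutant 10. All 99 differences in shares stayed within 1 SD between replicates of the main value. Depth limits miR-98 and let-7e, whose counts lay 1.93 to 3.88 times above the threshold.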
